A study of Mus musculus with 6 samples.

Results

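The mitochondrial ribosomal protein genes were taken as all protein-coding genes whose symbol starts with *Mrpl* (large subunit names) or *Mrps* (small subunit names) in the mm9 gene annotation. The annotation holds 77 such genes, and 76 of them have a row among the 20409 genes counted. *Mrpl53* was not analysed here. All 76 passed the filter on low counts and were tested together with 13346 genes in all. The genes lie on 17 chromosomes, with 10 of them on chromosome 11.

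Mitochondrial ribosomes translate the few messenger RNAs that the mitochondrial genome encodes, all of them for subunits of the respiratory chain and the ATP synthase. Their ribosomal RNAs come from mitochondrial DNA, while every protein of both subunits is encoded in the nucleus, made by cytosolic ribosomes and imported. Mature enterocytes, the absorptive cells that cover the villus, are rich in mitochondria.

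RNA was sequenced from duodenal villus epithelium of 3 double mutant and 3 wild-type mice, with each library taken as 1 mouse. The aim was to compare epithelium that is losing its differentiated state with normal villi. The double mutant mice carried Villin-CreERT2, 2 floxed alleles of *Smad4* and 1 allele of the β-catenin gene with a floxed exon 3, so that recombination removes Smad4 (loss of function) and stabilises β-catenin (gain of function). They received tamoxifen at 0.05 g/kg on 4 consecutive days and villi were taken 7 days after the first injection, whereas the wild-type mice were littermates that were not injected. Each group held 2 females and 1 male on a background enriched for C57BL6. Villin drives Cre in the epithelium of the whole intestine, and the injected tamoxifen and the labelled genotype change together between the groups, so their parts cannot be told apart. Whether the wild-type littermates carried Cre is not given in the sources used here. In bulk epithelium, fewer cells of a type and less RNA per cell also cannot be told apart.

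The libraries held between 19678507 and 26337318 counts. *Smad4* had 120, 180 and 145 CPM (normalised read counts, relative to the library total scaled by edgeR's TMM factors) in the wild-type mice and 26.05, 36.8 and 32.1 CPM in the double mutant mice. The log2 fold change was -2.22 (SE 0.187, n = 3 and 3, adjusted p = 0.000145). *Ctnnb1*, whose total count does not show the loss of exon 3, stood at -0.15 on the log2 scale (adjusted p = 0.359). The 10 enterocyte markers (*Alpi*, *Vil1*, *Sis* and others) made up 4.49 to 4.93% of a wild-type library and 2.82 to 3.13% of a double mutant library. Markers of mesenchyme and endothelium took at most 0.00063% in any mouse. Wild-type mouse 1 stood apart, since 8 goblet cell markers took 0.0114% of its counts (95% Wilson interval 0.011 to 0.0118%, counting error only) against 1.06 and 1.08% in the other wild-type mice. It was also the only male of its group. Counts called without it are given for the family, its subunits, the other gene lists and the cell markers, and not for the smaller groups of members.

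A minority of the mitochondrial ribosomal protein genes passed the test, all of them with a higher level in the double mutant villi. In the quasi-likelihood test of edgeR, with p-values adjusted across the whole table by the Benjamini-Hochberg method (called at an adjusted p under 0.05), 32 of the 76 rose, 0 fell and 44 were not called. Among all tested genes 19.7% were called higher and 17.0% lower, so the 42.1% of members called higher stood above the background. At an unadjusted p under 0.05, 40 members were higher and 0 lower, and DESeq2 and limma-voom called 34 and 33 higher and 0 lower. The median log2 fold change was 0.44 (a fold of 1.36) against 0.02 over all tested genes, with quartiles of 0.19 and 0.74 and a range from -0.25 to 2.01. The fold change was positive for 68 members and negative for 8, while 51.3% of all tested genes had a positive one. In 39 members all 3 double mutant mice lay above all 3 wild-type mice, an order found in 28.1% of tested genes, and in 0 members they all lay below (24.2% of tested genes).

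The changes were of moderate size. The 32 called members had log2 fold changes between 0.52 and 2.01, with adjusted p between 0.000556 and 0.0386. Past a log2 fold change of 1 there were 6 members (10.9% of all tested genes), and past 2 there was 1, *Mrps6* (3.04% of all tested genes). Of all tested genes 6.23% were lower past a fold change of 1 on this scale and 2.26% past 2, and 0 members were. The counts depended on single mice, with 38 members called higher without wild-type mouse 1 (median 0.54), 19 without wild-type mouse 2 and 18 without double mutant mouse 2 (median 0.33 in each of these). In the same fits 20.2%, 14.7% and 13.2% of all tested genes were called higher. Of the 32, 18 were called in every one of the 6 leave-one-out fits. With library totals in place of TMM factors the median of all genes shifted to 0.22 and that of the members to 0.63, 49 members were called higher (28.0% of all tested genes) and 75 had a positive fold change. The share of all calls that were higher went from 53.7% to 72.4% with library totals, while the members' median exceeded that of all genes by 0.42 under both scalings.

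**Figure D1:**
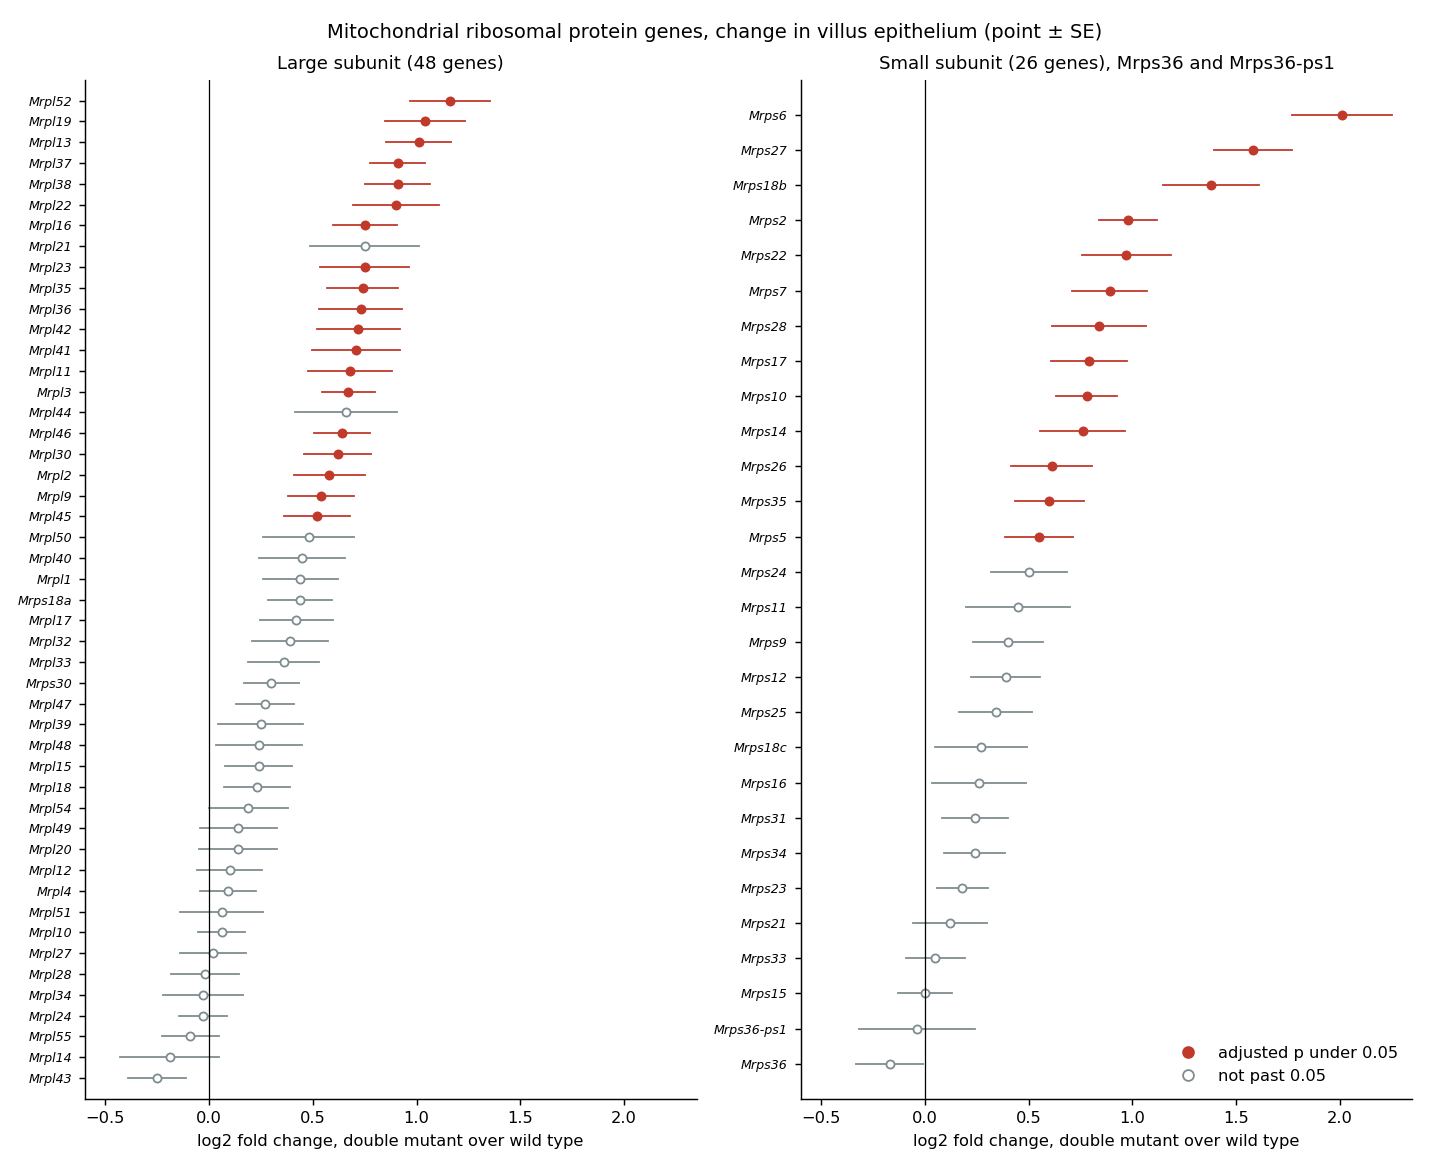
Log2 fold change (double mutant over wild type) of the 76 genes with the standard error, the 48 large subunit genes on the left and the 26 small subunit genes with Mrps36 and its copy on the right. Filled red points have an adjusted p under 0.05. All 32 filled points lie between 0.52 and 2.01, and the lowest point is Mrpl43 at -0.25.

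In the small subunit, 13 of 26 genes rose and 0 fell, with a median log2 fold change of 0.53 (also 13 without wild-type mouse 1, median 0.60). Over all leave-one-out fits 8 to 13 rose, with medians from 0.37 to 0.61. The 3 largest rises of the family were all in this subunit. *Mrps6* (chr16:92058515-92112472 in mm9, plus strand) encodes a protein of the platform that has a bacterial counterpart. It had 3.08, 2.94 and 4.35 CPM in the wild-type mice and 13.1, 17.5 and 11.2 CPM in the double mutant mice. The groups were far apart, and the lowest double mutant value exceeded the highest wild-type value. Its log2 fold change was 2.01 (SE 0.243, adjusted p = 0.000609). Of its exon bases, 43.8% (696 bp) are shared on the same strand with *Slc5a3*, a myo-inositol transporter gene, and the sources used here do not state how reads on shared bases were assigned. *Slc5a3* itself had 1.54, 2.01 and 1.31 CPM in wild-type villi and 9.76, 8.35 and 8.54 CPM in the double mutant, and its log2 fold change was 2.45 (adjusted p = 0.000268). Its part in the *Mrps6* value was not tested.

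*Mrps27* (chr13:100114741-100185516 in mm9, plus strand) encodes a pentatricopeptide repeat protein without a bacterial counterpart. It had 5.37, 5.77 and 4.95 CPM in wild-type villi and 17.1, 18.2 and 12.9 CPM in double mutant villi, again without overlap. Its log2 fold change of 1.58 (SE 0.187) had the smallest adjusted p of the family, 0.000556. *Mrps18b* (chr17:36047324-36053334 in mm9, minus strand) is one of 3 paralogs of a bacterial small subunit protein. It had 6.75, 5.55 and 4.40 CPM in wild-type villi and 18.3, 12.7 and 12.5 CPM in the double mutant, which is a log2 fold change of 1.38 (SE 0.231, adjusted p = 0.00253). The 3 paralogs did not give the same result. *Mrps18a*, whose product sits in the large subunit, was at 0.44 (adjusted p = 0.0529), and *Mrps18c* at 0.27 (adjusted p = 0.37), neither of them called. The differences among the paralogs were not tested.

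*Mrps2*, which encodes a protein with a bacterial counterpart, had 15.2, 14.0 and 13.8 CPM in wild-type villi and 30.6, 30.3 and 24.4 CPM in double mutant villi. The values were close together within each group (log2 fold change 0.98, SE 0.139, adjusted p = 0.0012). *Mrps10* rose by a log2 fold change of 0.78 (adjusted p = 0.00422) from one of the lowest levels per length in the family. Around the mRNA channel and the decoding site, where the message enters and codons are read, 1 of 3 genes was called, *Mrps5* at 0.55 (adjusted p = 0.03), and *Mrps12* had 0.39 (adjusted p = 0.0951). *Mrps5* was called in 2 of the 6 leave-one-out fits. *Mrps15*, a primary rRNA-binding protein in bacteria, had 46.9, 37.6 and 39.9 CPM in wild-type villi and 38.4, 45.5 and 40.9 CPM in the double mutant, which is a log2 fold change of 0.00 (SE 0.129, adjusted p = 0.984). Its groups overlapped fully.

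*Mrps36*, a member by its name, encodes a protein now assigned to the α-ketoglutarate dehydrogenase complex, and its log2 fold change was -0.17 (adjusted p = 0.434). *Mrps36-ps1*, named as a pseudogene but listed as protein-coding, had -0.04 (adjusted p = 0.917), and reads of the pair cannot be fully told apart. Without both, 32 of 74 members rose with a median of 0.45.

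In the large subunit, 19 of 48 genes rose and 0 fell, with a median log2 fold change of 0.44 (25 rose without wild-type mouse 1, median 0.54). Over all leave-one-out fits 10 to 25 rose, with medians from 0.29 to 0.54. *Mrpl52* (chr14:55045746-55048587 in mm9, plus strand), a subunit specific to mitochondria, had the largest rise. It had 19.6, 14.3 and 17.6 CPM in wild-type villi and 29.9, 47.2 and 38.1 CPM in the double mutant (log2 fold change 1.16, SE 0.193, adjusted p = 0.00244). Double mutant mouse 2 was highest and mouse 1 lowest within a group that stayed above every wild-type mouse. *Mrpl19*, whose bacterial counterpart lies at the interface of the subunits, had 9.08, 6.69 and 7.13 CPM in wild-type villi and 14.3, 18.7 and 14.0 CPM in the double mutant (log2 fold change 1.04, SE 0.193, adjusted p = 0.00407). *Mrpl13*, whose bacterial counterpart joins early in assembly, had 13.2, 10.9 and 13.4 CPM in wild-type villi and 26.2, 28.1 and 21.8 CPM in the double mutant (log2 fold change 1.01, SE 0.155, adjusted p = 0.00165). *Mrpl37*, another subunit specific to mitochondria, had 22.1, 21.6 and 19.7 CPM in wild-type villi and 38.6, 45.2 and 35.3 CPM in the double mutant (log2 fold change 0.91, SE 0.132, adjusted p = 0.00131). Each of these genes separated the groups completely.

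**Figure D2:**
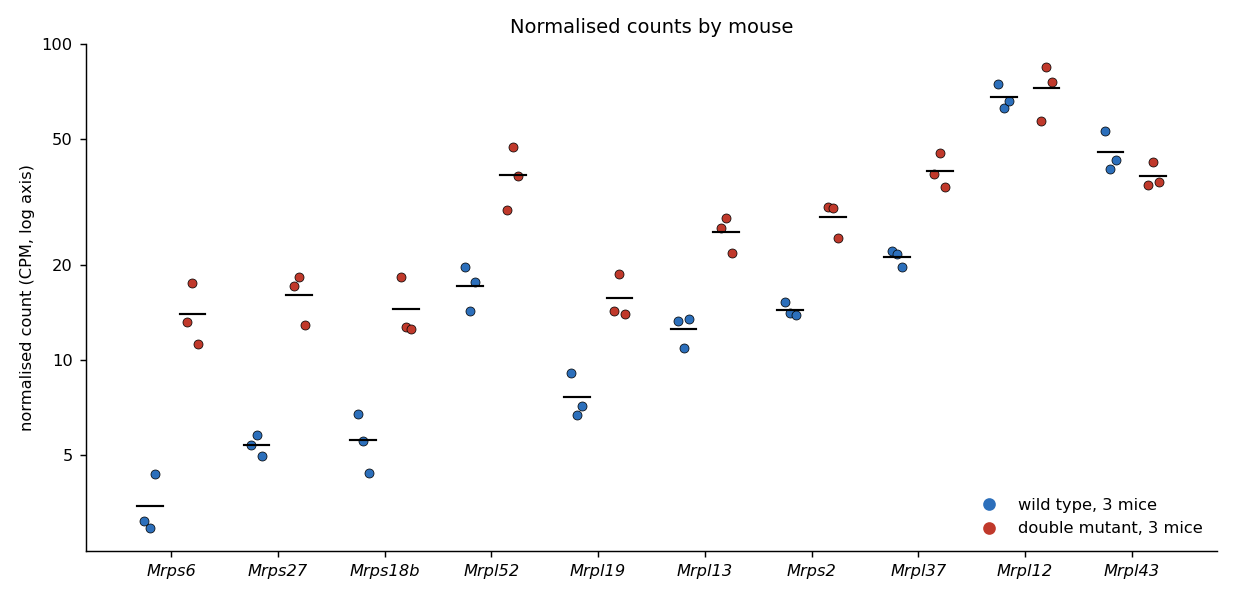
Normalised counts (CPM, log axis) of 10 genes in each of the 3 wild-type (blue) and 3 double mutant (red) mice, with a line at the group mean. The groups are separate for the 8 genes from Mrps6 to Mrpl37 and overlap for Mrpl12 and Mrpl43.

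The functional centres of the large subunit hold few genes each, and 19.7% of all tested genes were called higher. Of the 4 genes near the peptidyl transferase centre, where peptide bonds form, 3 rose (median 0.62). These were *Mrpl2* (0.58, adjusted p = 0.0295), *Mrpl3* (0.67, adjusted p = 0.00458) and *Mrpl16* (0.75, adjusted p = 0.00618), while *Mrpl27* had 0.02 (adjusted p = 0.947). Of the 6 genes around the exit tunnel, where the new peptide leaves, 3 rose (median 0.47), among them *Mrpl45*, which holds the ribosome to the inner membrane (0.52, adjusted p = 0.0311). Of the 5 genes of the central protuberance 2 rose (median 0.45). Of the 3 genes of the stalk that recruits translation factors, *Mrpl11* rose by 0.68 (adjusted p = 0.0288), and its neighbours on the stalk were not called. *Mrpl10*, the anchor of the stalk, had 0.06 (adjusted p = 0.695). *Mrpl12*, the factor-binding stalk protein, had 74.5, 62.8 and 65.9 CPM in wild-type villi and 57.0, 84.6 and 75.8 CPM in the double mutant (log2 fold change 0.10, SE 0.157, adjusted p = 0.656). The counts rest on single calls, since *Mrpl2* and *Mrpl45* were called in 2 and *Mrpl11* in 3 of the 6 leave-one-out fits, and the differences between these small groups were not tested.

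Genes with a bacterial counterpart and genes specific to mitochondria gave similar counts, with 19 of 44 (median 0.44) and 11 of 26 (median 0.46) called higher. Of 13 genes whose human orthologs are linked to inherited respiratory chain disease, 6 rose (median 0.66). At the other end of the family, *Mrpl43* had 53.0, 40.1 and 43.0 CPM in wild-type villi and 35.7, 42.3 and 36.5 CPM in double mutant villi. Its log2 fold change of -0.25 (SE 0.141, adjusted p = 0.2) was the lowest of the 76 and was not called. *Mrpl28* had -0.02 (adjusted p = 0.935), and its sign, like those of *Mrpl34*, *Mrpl27*, *Mrps15* and *Mrps36*, changed with at least 1 other scaling.

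The rise was also seen in sums over the family. The 76 genes together took 0.188, 0.146 and 0.173% of the counts in the wild-type mice and 0.233, 0.281 and 0.232% in the double mutant mice, with means of 0.169% ± 0.0215 and 0.249% ± 0.0282 (SD, n = 3 each). The groups did not overlap, and the 95% Wilson intervals of the highest wild-type mouse (0.186 to 0.19%) and the lowest double mutant mouse (0.23 to 0.234%) were narrow against the spread between mice. The family moved together within groups. Wild-type mouse 1 was the highest of its group for 59 of the 76 genes (37.6% of all tested genes) and wild-type mouse 2 the lowest for 56 (30.8% of all tested genes). Double mutant mouse 2 was the highest of its group for 63 (35.0% of all tested genes). Among the leave-one-out fits, the number of calls moved most without wild-type mouse 2 or double mutant mouse 2.

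Set against the nuclear-encoded respiratory chain genes, whose products join those made by mitochondrial ribosomes, the mice of a group lay closer together. Per 100 counts of nuclear-encoded respiratory chain genes, the family had 7.69, 7.62 and 7.94 counts in wild-type villi and 10.8, 10.7 and 9.85 in double mutant villi. The means were 7.75 ± 0.168 and 10.5 ± 0.522 (SD, n = 3 each), and the spread within wild-type mice was small. Without 4 genes taken in by name that are not chain subunits, the values were 7.65 to 7.97 in wild-type villi and 9.89 to 10.8 in double mutant villi. Per 100 counts of cytosolic ribosomal protein genes the direction was the opposite, with 30.3, 27.3 and 25.1 in wild-type villi and 16.4, 14.5 and 13.7 in double mutant villi. Both ratios separated the groups. Large subunit genes had 2.65, 2.54 and 2.59 counts for each count of a small subunit gene in wild-type villi and 2.34, 2.36 and 2.4 in double mutant villi. That ratio was lower in every double mutant mouse.

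**Figure D3:**
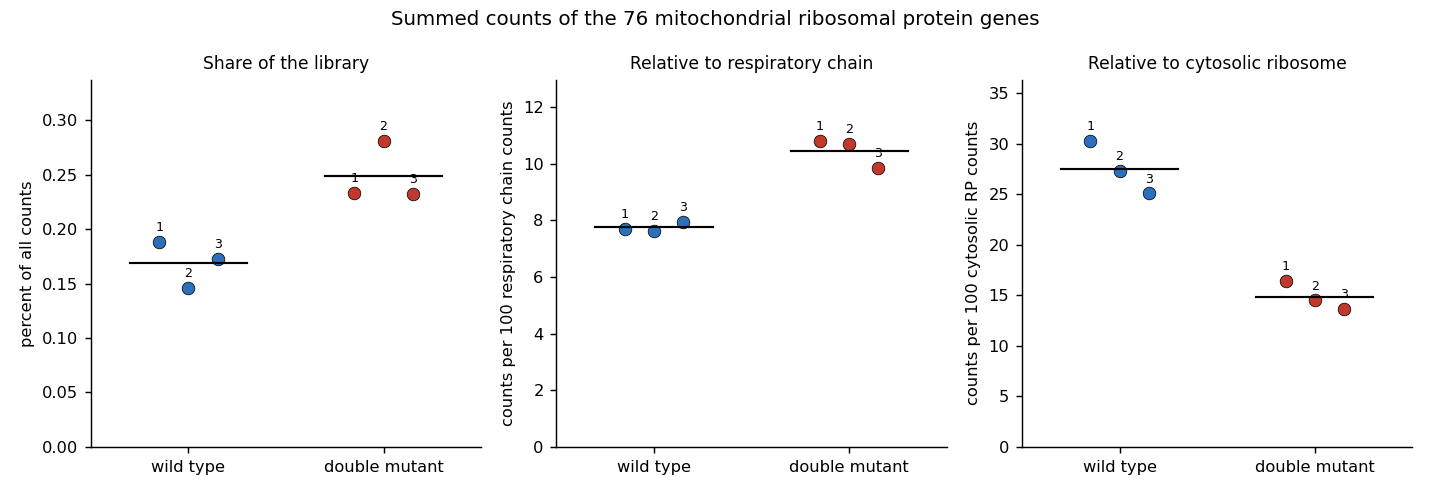
Summed counts of the 76 genes in each mouse (points, numbered by mouse, with a line at the group mean) as a percent of all counts, per 100 counts of nuclear-encoded respiratory chain genes, and per 100 counts of cytosolic ribosomal protein (RP) genes. The double mutant mice lie above the wild-type mice in the first and second panels and below them in the third.

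Other genes of mitochondrial translation were compared by lists. Of 7 mitochondrial ribosome subunits with other names, 5 rose and 0 fell (median 0.66). *Dap3*, a GTP-binding protein of the small subunit, rose by 0.55 (adjusted p = 0.012), and *Ptcd3*, a pentatricopeptide repeat protein, by 0.85 (adjusted p = 0.00246). *Gadd45gip1* of the large subunit rose by 0.74 (adjusted p = 0.00957). The largest change was in *Mrp63*, the older symbol of *Mrpl57*, with 15.4, 11.6 and 15.9 CPM in wild-type villi and 22.1, 31.1 and 27.4 CPM in the double mutant (log2 fold change 0.91, adjusted p = 0.00527). With these genes, and without *Mrps36* and its copy, 37 of 81 subunits rose (median 0.48).

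Of 24 genes for ribosome assembly and rRNA modification, 8 rose and 0 fell (median 0.50). The list's largest rise was *Rnmtl1*, an rRNA methyltransferase, with 0.667, 1.03 and 0.505 CPM in wild-type villi and 3.76, 3.85 and 3.32 CPM in the double mutant (log2 fold change 2.31, SE 0.35, adjusted p = 0.00162). Of 14 translation factors and mRNA-handling genes, 5 rose and 0 fell (median 0.32). *Tsfm*, the exchange factor of the elongation factor *Tufm*, rose by 1.22 (adjusted p = 0.00239), whereas *Tufm* itself had 0.32 (adjusted p = 0.101). *Lrpprc*, which stabilises mitochondrial mRNAs, had 42.5, 45.3 and 37.1 CPM in wild-type villi and 107, 79.4 and 69.7 CPM in the double mutant (log2 fold change 1.03, adjusted p = 0.0023). Of 9 genes for transcription and upkeep of mitochondrial DNA, 3 rose and 0 fell (median 0.30), led by the topoisomerase *Top1mt* (2.67, adjusted p = 0.000581). The polymerase *Polrmt* had 0.30 (adjusted p = 0.077) and the packaging factor *Tfam* 0.22 (adjusted p = 0.244), neither of them called. Without wild-type mouse 1, 5 other subunits, 10 assembly genes, 6 translation factors and 3 transcription genes were called higher. Over all leave-one-out fits the numbers ran from 4 to 5, 5 to 10, 3 to 6 and 2 to 3, in the same order.

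Cytosolic ribosomal protein and respiratory chain genes were compared with the family in the same way. Of 78 cytosolic ribosomal protein genes, 70 rose and 0 fell, with a median of 1.39. The largest, *Rps12*, rose by 2.16 (adjusted p = 3.24e-05). Of 81 genes taken by name as nuclear-encoded respiratory chain genes, 5 rose and 2 fell, with a median of 0.05. The names also took in *Cox4nb*, which encodes a protein of the endoplasmic reticulum, and *Atp5s*, *Atp5sl* and *Atp5l-ps1*, which are not counted as subunits, of which *Atp5l-ps1* had not passed the filter on low counts. Without them 4 of the 78 tested genes left rose and 2 fell, with the same median. The extremes were *Ndufa4* at 0.82 (adjusted p = 0.0444) and *Cox6b2* at -2.38 (adjusted p = 0.0416), a gene of few counts whose groups overlapped. Of the 13 mRNAs of the mitochondrial genome, which the mitochondrial ribosome translates, 0 were called in either direction by edgeR (1 higher and 0 lower at an unadjusted p under 0.05, 1 higher by DESeq2 and 0 by limma-voom), and the median was -0.17, or 0.04 with library totals. Their counts were very uneven. In wild-type villi *mt-Co1* had a mean of 25500 CPM, but *mt-Co2* 121, *mt-Co3* 96.8 and *mt-Atp6* 59.4 CPM. *mt-Nd4l*, *mt-Nd3* and *mt-Atp8* had 5.67, 3.21 and 0.593 CPM. The reason was not tested, and the calls and the median include these genes. Without wild-type mouse 1 the counts were 67 higher for the cytosolic ribosomal protein genes, 6 higher and 0 lower for the 81 respiratory chain genes (median 0.18) and 0 for the mitochondrial mRNAs (median 0.06). The differences between lists were not tested.

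**Figure D4:**
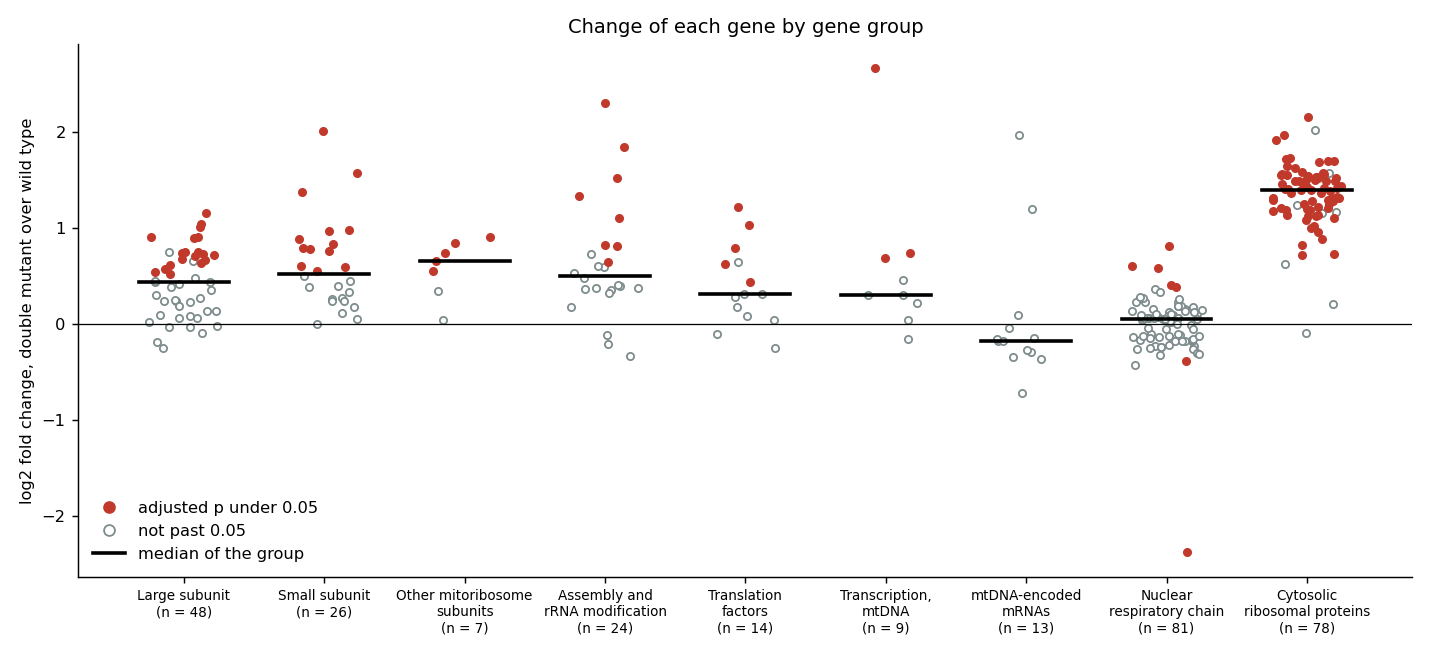
Log2 fold change (double mutant over wild type) of every tested gene in 9 groups, with filled red points for an adjusted p under 0.05 and a bar at the median. The bars of the large (0.44) and small (0.53) subunit lie between those of the nuclear respiratory chain (0.05) and the cytosolic ribosomal proteins (1.39).

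Levels between genes were compared as CPM per kilobase of exon, with all annotated exons of a gene merged. The median over the family was 11.7 for the wild type and 15.2 for the double mutant. Cytosolic ribosomal protein genes had medians of 49.0 and 128, and respiratory chain genes 121 and 128, on the same scale. Among the cytosolic genes, *Rps18* varied widely within a group (40.0, 2.77 and 43.3 CPM in wild-type villi). Settings for reads that match several genes are not given, and how far levels compare between these lists was not tested. In wild-type villi *Mrpl34* was highest (83.0 ± 21.8, SD, n = 3), followed by *Mrpl54* (53.3 ± 7.9), *Mrpl12* (44.2 ± 3.96) and *Mrpl52* (41.7 ± 6.52). *Mrpl34* encodes a very small protein, and its level stood clear of the next gene by more than an SD, whereas *Mrpl12* and *Mrpl52* differed by less than the spread between mice. In double mutant villi the order changed, with *Mrpl52* (93.2 ± 21.1) above *Mrpl34* (81.5 ± 11.5), *Mrpl42* (65.5 ± 8.85) and *Mrpl54* (60.8 ± 14.8). *Mrpl34* lay above *Mrpl42* by more than an SD, while *Mrpl52* and *Mrpl34*, and *Mrpl42* and *Mrpl54*, differed by less than that. *Mrpl19*, *Mrpl13* and *Mrps10* had the lowest mean levels per length over all mice, at 1.40, 1.58 and 1.68 in wild-type villi, with neighbours in this order less than an SD apart. Their merged exons are long, at 5450, 7936 and 8079 bp against a family median of 1700.5 bp. Without division by length they had 7.63, 12.5 and 13.6 CPM in wild-type villi, above *Mrps6* at 3.46 CPM, so this order depends on the annotated length.

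Genes of low level held more of the calls. Of the 25 genes with the lowest mean level, 16 rose (median log2 fold change 0.67), against 10 of the middle 26 (median 0.49) and 6 of the highest 25 (median 0.14). *Mrpl42* (0.72, adjusted p = 0.0226) and *Mrpl52* were called among the 5 highest levels, and *Mrpl34* (-0.03, adjusted p = 0.926), *Mrpl54* (0.19, adjusted p = 0.472) and *Mrpl12* were not. *Mrpl42* was called in 2 of the 6 leave-one-out fits. Across the 76 genes, level per length and log2 fold change had a Spearman rho of -0.501 and a Pearson r of -0.46. Both come from the same 6 libraries and genes are not independent replicates, so this is a description. Over all 13346 tested genes, with level not divided by length, the Spearman rho was -0.208, and for the members on that scale it was -0.575. The median SE of the fold change was similar in the 3 level classes (0.176, 0.182 and 0.162). No member had fewer than 54 counts in any mouse.

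**Figure D5:**
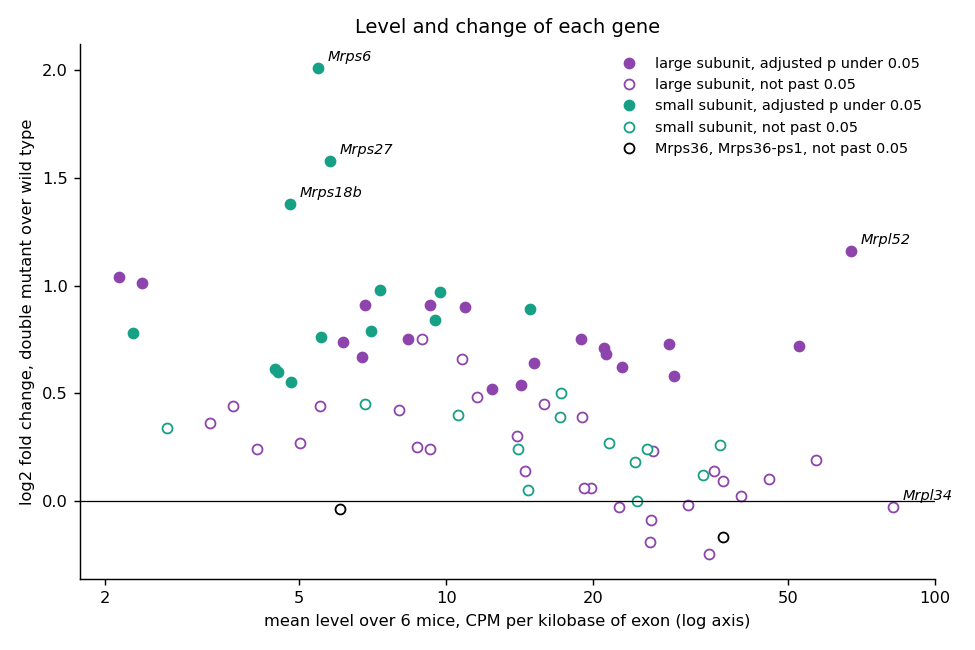
Mean level over the 6 mice (CPM per kilobase of exon, log axis) against log2 fold change (double mutant over wild type) for each of the 76 genes, with filled points for an adjusted p under 0.05. The largest rises, Mrps6, Mrps27 and Mrps18b, sit at low levels, and Mrpl52 is the high-level gene with a rise of 1.16.

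Many of these genes lie close to other genes, and whether this affects their counts was not tested. Exon bases are shared with another annotated gene in 25 of the 76, and 8 share over 20% of them. Of those 8, with a median log2 fold change of 0.69, 4 were called, and these were *Mrps6*, *Mrps27*, *Mrps18b* and *Mrpl19*, 4 of the 6 largest rises. Of the 68 others, 28 rose, with a median of 0.44. The partners of *Mrps27* and *Mrps18b* are lincRNAs on the opposite strand at no more than 0.61 and 0.751 CPM in any mouse, well below the genes themselves. The partner of *Mrpl19*, *AW146020*, is also on the opposite strand and shares 36.0% of its exon bases. *AW146020* had 0.667 to 0.979 CPM in wild-type villi and 1.39 to 2.25 CPM in the double mutant. Its log2 fold change was 1.09 (adjusted p = 0.0525, not called), and its part in the *Mrpl19* value was not tested.

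A divergent neighbour, a gene that starts within 1000 bp on the opposite strand, was found for 28 members. Of 25 such neighbours that were tested and are not members themselves, 6 rose and 1 fell, a share of rises near the 19.7% of all tested genes, and in 3 pairs both genes rose. The pairs in which both rose were *Mrpl37* with *Cyb5rl* (2.51), *Mrps5* with *Zfp661* (1.75) and *Mrps27* with *Ptcd2* (0.59, adjusted p = 0.028). *Ptcd2* lies 108 bp from *Mrps27* and encodes another mitochondrial pentatricopeptide repeat protein. The neighbour that fell, *Ppp1r10* (-0.40, adjusted p = 0.0484), starts 45 bp from *Mrps18b*, which rose. *Sars2*, the mitochondrial seryl-tRNA synthetase gene 171 bp from *Mrps12*, rose by 0.88 (adjusted p = 0.0126). The median of the neighbours was 0.25 and that of the members beside them 0.39.

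Promoter sequences of 66 members were found by symbol in RefSeq (GRCm38.p6), as 250 bases before to 50 bases after the start, and searched on both strands for short motifs. The letters CCGGAAG, usually given for ETS factors such as GABP, were in 34.8% of the members' promoters, 19.7% of the promoters of 8852 tested genes and 9.93% of all 27025 promoters. TGCGCA, the core of the NRF1 motif, was in 28.8%, 15.7% and 8.79%, and AAGATGG, given for YY1, in 19.7%, 8.38% and 7.28%. The GC box letters GGGCGG were in 33 of the 66 members' promoters and in 67.5% and 38.2% of the same 2 sets of genes, the E-box CACGTG in 7.58%, 11.8% and 8.09%, and TATAAA in 7.58%, 9.14% and 15.7%. No motif contains another, although their ends can overlap, and a match is a description of letters, not a site.

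Either motif was found in called and in uncalled members. CCGGAAG was in 25.9% of the promoters of the 27 called members with one and in 41.0% of the 39 not called, and TGCGCA in 37.0% and 23.1%. The last 100 bases before the start are shown for the 4 called members with the largest rise and the 3 uncalled members with the lowest fold change among those that hold either motif there, so that both outcomes can be seen beside the same letters. Capitals mark CCGGAAG or TGCGCA on either strand.
Mrps6 (GRCm38.p6, chr16:92058236-92058335, plus strand): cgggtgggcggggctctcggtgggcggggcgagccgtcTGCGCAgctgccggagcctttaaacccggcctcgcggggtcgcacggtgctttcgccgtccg
Mrps27 (GRCm38.p6, chr13:99344686-99344785, plus strand): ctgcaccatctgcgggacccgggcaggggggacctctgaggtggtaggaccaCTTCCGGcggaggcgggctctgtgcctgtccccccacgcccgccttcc
Mrpl52 (GRCm38.p6, chr14:54426809-54426908, plus strand): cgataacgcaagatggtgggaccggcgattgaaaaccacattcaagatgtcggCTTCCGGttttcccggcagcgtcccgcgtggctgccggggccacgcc
Mrps22 (GRCm38.p6, chr9:98601680-98601779, minus strand): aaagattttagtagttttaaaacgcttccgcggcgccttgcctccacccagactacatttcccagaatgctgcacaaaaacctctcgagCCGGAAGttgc
Mrpl43 (GRCm38.p6, chr19:45006443-45006542, minus strand): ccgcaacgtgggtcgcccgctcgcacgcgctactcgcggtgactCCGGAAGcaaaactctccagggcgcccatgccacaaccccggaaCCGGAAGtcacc
Mrpl34 (GRCm38.p6, chr8:71464826-71464925, plus strand): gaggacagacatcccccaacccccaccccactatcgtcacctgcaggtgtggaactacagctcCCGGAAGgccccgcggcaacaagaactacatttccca
Mrpl27 (GRCm38.p6, chr11:94653691-94653790, plus strand): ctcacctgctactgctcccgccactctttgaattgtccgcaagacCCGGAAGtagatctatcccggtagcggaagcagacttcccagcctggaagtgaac
*Mrps6* carries TGCGCA and the other 6 carry CCGGAAG or its reverse complement. *Mrps22* rose by 0.97 (adjusted p = 0.00856). *Mrpl43*, with the lowest fold change of the family, holds the ETS letters at 2 places.

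Markers of cell state also differed between the groups, but not always in the same order of mice within a group. Wild-type mouse 1 had the highest family share of its group and the lowest stem (0.00456%) and proliferation (0.00671%) marker shares, and double mutant mouse 2 had the highest family share and the lowest stem marker share (0.0341%) of its group. The same 2 mice also had the highest enterocyte marker share of their groups (4.93% and 3.13%), and double mutant mouse 2 had the highest proliferation marker share (0.0255%, against 0.0254% and 0.0217%). The 8 proliferation markers made up 0.00849% ± 0.00154 of the wild-type libraries and 0.0242% ± 0.00215 of the double mutant libraries (SD, n = 3 each), with 7 of 8 called higher. The 8 stem and progenitor markers took 0.0102% ± 0.00496 and 0.0393% ± 0.00563, with 5 of 8 called higher. Of the 10 enterocyte markers 7 were called lower and 1, *Fabp1*, higher (log2 fold change 0.82, adjusted p = 0.0331), with 4.64% ± 0.253 and 3.02% ± 0.171 of the counts. Tuft cell markers fell from 0.0149% ± 0.0027 to 0.0016% ± 7.84e-05 (7 of 7 called lower), and of the 8 enteroendocrine markers 6 were called lower and 1, *Tac1*, higher (2.36, adjusted p = 0.0107). Of 7 tested immune markers 2 were called lower, *Ptprc* (log2 fold change -1.29, adjusted p = 0.00545) and *Cd8a* (-0.92, adjusted p = 0.0191), and the median was -0.91. The summed immune share, of which *Cd74* made up 89.0 to 97.3% in each mouse, was 0.064 to 0.269% of wild-type and 0.121 to 0.336% of double mutant libraries and overlapped. Goblet cell markers took 0.493 to 0.548% in double mutant villi and Paneth cell markers 0.0166 to 0.0263%, both between wild-type mouse 1 and the other wild-type mice. Without wild-type mouse 1, 7 proliferation and 6 stem markers were called higher, and 7 enterocyte, 7 tuft, 7 enteroendocrine, 5 goblet, 2 Paneth and 5 immune markers lower, with 1 marker called higher in each of the enterocyte, goblet, Paneth and enteroendocrine lists. The part of any of these in the rise of the mitochondrial ribosomal protein genes was not tested.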

How the data were processed

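RNA of duodenal villus epithelium from 6 mice was enriched for polyadenylated transcripts and sequenced with paired ends. The authors used HISAT2 and the mm9 genome for alignment and featureCounts for counting, and deposited raw counts per gene, 1 column per sample, not normalised. Settings for strand and for reads that match several genes are not given in the sources used here. Groups were taken from the sample labels. Gene symbols and positions came from the GENCODE annotation of mm9, which held 20032 of the 20409 identifiers.

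From the counts, edgeR 4.0.16 (R 4.3.3) was used with filterByExpr, TMM factors, robust glmQLFit and glmQLFTest, without covariates, and Benjamini-Hochberg adjustment over 13346 genes. The fit was first tested on simulated data. Standard errors are those of the log2 fold change. Depth was 19678507 to 26337318 counts per mouse, so 3 counts correspond to 0.125 to 0.163 CPM. Intervals cover counting error only. With 3 mice against 3, an exact permutation test of a single value cannot go below p = 0.1, and none was run. The labels list 6 samples, numbered as 3 replicates per group and each given as male or female. Each sample was taken as 1 mouse. DESeq2 1.42.0, limma 3.58.1 (voom), other scalings and filters, a replicate block, sex as a covariate and fits without each mouse were alternatives.

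The members, the lists and the tests were chosen with earlier results of these data known. Genes named were the members with the 6 largest changes, the 5 smallest and 3 largest adjusted p, the 5 highest and 3 lowest levels per length, members fixed by their role, and the largest called change in each list with a few fixed genes. *Mrps5*, *Mrps22*, *Mrpl43*, *Mrps36-ps1*, *Cox4nb*, *Atp5s*, *Atp5sl*, *Atp5l-ps1*, *Ptprc*, *Cd8a*, *Cd74*, *Fabp1*, *Tac1*, *Rps18*, the mitochondrial mRNAs and the overlapping or neighbouring genes were named after their values were seen.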

Additional observations from a re-analysis of the deposited data

How the results depend on the processing

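No member was called lower under any alternative, and all 27 called genes among the 43 named kept their direction in each. The number of members called higher was 49 with library totals, 20 with a replicate block (15.6% of all tested genes were higher there, against 26.3% of members), 6 past a log2 fold change of 1 and 1 past 2, and ranged from 18 to 38 when each mouse was left out (median log2 fold change 0.33 to 0.54, and 0.63 with library totals). Large subunit genes called higher numbered 30 with library totals, 12 with the replicate block and 10 to 25 with a mouse left out, and small subunit genes 8 with the block and 8 to 13 with a mouse left out. Assembly genes gave 14 with library totals and 5 to 10 with a mouse left out, translation factors 3 to 6 with a mouse left out, and transcription genes 5 with library totals, where 1425 of all genes were called lower. The causes were not tested.

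Whether the replicate numbers pair the mice is not known. Same-numbered deviations from the group mean had correlations of 0.0224, -0.109 and 0.0123, which with 3 mice per group cannot exclude a pairing. Sex follows the numbers, since replicate 1 was male in both groups. All 20 members called with the block were among the 32. Other alternatives were chosen after seeing the data, among them the lists without wild-type mouse 1 and the respiratory chain list without 4 genes. Scaling by respiratory chain counts gave 33 members higher with a median of 0.51. In that fit 16.2% of all tested genes were called higher, with a median of 0.08. Leaving out the 8 members that share over 20% of their exon bases gave 28 of 68.

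Sign changes were limited to genes that were not called. *Mrpl34* had 0.17 with library totals, 0.06 with upper-quartile factors and 0.00 with sex as a covariate, *Mrpl28* had 0.17 and 0.07 with the first of these scalings and the second, and *Mrps36* and *Ctnnb1* had 0.02 and 0.05 with library totals. *Mrps15* had -0.02 and *Mrpl27* -0.01 with DESeq2 and with RLE factors. With a mouse left out, *Mrpl34* ran from -0.17 to 0.20, *Mrpl28* from -0.15 to 0.11, *Mrps15* from -0.07 to 0.10, *Mrpl27* from -0.07 to 0.16, *Mrpl54* from -0.00 to 0.36 and *Mrpl12* from -0.03 to 0.25. Of 644 values for named genes under alternatives, 33 lost and 13 gained the call.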
